A study of Mus musculus with 15 samples.

Results

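Hepatocyte regions kept open in reprogrammed cells are stretches of accessible chromatin that reprogrammed mouse hepatocytes shared with the hepatocytes of the same treatment. Biliary cells of that treatment held them at a lower level than reprogrammed cells, with no limit set between biliary cells and hepatocytes. The regions were chosen from group means in the DDC libraries by 4 conditions. DDC hepatocytes had to average at least 5 nuclear RPM, the unit defined below, and reprogrammed cells at least 5. Reprogrammed cells had to reach at least 0.5 times the hepatocyte mean, and DDC biliary cells had to stay at or under 0.5 times the reprogrammed mean. Of 93217 regions, 676 met the rule, which is 0.725% of the 93215 nuclear regions and 2.66% of the 25399 regions that passed the floor of 5 in reprogrammed cells and DDC hepatocytes. Because the rule read all 9 DDC libraries, the levels of those libraries are a description here and carry no test.

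The study measured accessible chromatin by ATAC-seq, in which a transposase cuts and tags open DNA, in 15 libraries of cells sorted from mouse liver with no growth in culture. The groups hold 3 libraries each: reprogrammed hepatocytes from mice given DDC (labelled DDC.Rep), hepatocytes from mice given DDC (DDC.Hep), biliary cells from mice given DDC (DDC.Bil), hepatocytes from untreated mice (Untreat.Hep) and biliary cells from untreated mice (Untreat.Bil). Strain, age, dose and length of DDC feeding, the markers of the sort, how reprogrammed cells were recognised, and whether libraries came from separate animals do not appear in the labels or protocols used here. All p-values therefore measure the spread between these libraries, which may be technical. A nuclear RPM is 1 read in a region per 1000000 reads in all nuclear regions of that library, with no division by region length, so levels are compared between groups at the same region and not between regions.

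DDC (diethoxycarbonyl-dihydrocollidine) is a diet additive that blocks a late step of heme synthesis, plugs small bile ducts and brings on a ductular reaction. In this injury some hepatocytes switch on genes of bile duct cells, among them Sox9, Spp1 and keratins, while they lose part of the hepatocyte program. Hepatocyte identity is held by transcription factors such as HNF4A, FOXA and C/EBP proteins, whose binding keeps enhancers and promoters of plasma protein and metabolic genes open. An accessible region marks DNA that proteins can reach and says nothing by itself of the transcription of the gene nearby.

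Hepatocyte and biliary markers fitted the labels at the level of groups, with differences between libraries that touch the results below. Summed over the regions of 8 hepatocyte markers, reprogrammed libraries had 458 to 1038 nuclear RPM, DDC hepatocytes 2618 to 3772, DDC biliary cells 302 to 636, untreated hepatocytes 3760 to 5060 and untreated biliary cells 385 to 1001. The 7 biliary markers summed to 534 to 667, 151 to 251, 945 to 1058, 167 to 322 and 847 to 962 in the same order of groups. Reprogrammed library 3 and untreated biliary library 1 held the highest hepatocyte marker sums of their groups, 1038 and 1001, so results are also given without them. Stellate cell and fibroblast markers (Col3a1 without a region) summed to 175 to 213 in reprogrammed libraries, 68.0 to 108 in DDC hepatocytes, 170.0 to 190.0 in DDC biliary cells, 59.6 to 79.3 in untreated hepatocytes and 111 to 127 in untreated biliary cells. Of the macrophage markers Adgre1 and Clec4f had no region, nor had Cd79a among the lymphocyte markers. Lymphocyte markers summed to 61.1 to 85.2 in untreated hepatocytes, above every other group, and to 32.1 to 43.0 in untreated biliary cells. Macrophage markers summed to 74.3 to 115 and 120 to 131 in these 2 groups. The part of such cells in the untreated comparison was not tested. Nuclear reads per library ran from 201705 in an untreated hepatocyte library to 10395918 in a DDC biliary library, since mitochondrial regions took 4.69% to 84.18% of reads. The median over kept regions was 2, 6 and 2 reads in untreated hepatocyte libraries 1 to 3, against 8 to 13 in untreated biliary libraries, so differences at single regions there are imprecise.

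The start sites at which the results turn are shown first, as RefSeq promoter windows of GRCm38.p6, which has the coordinates of the files' build mm10. Each window runs from 250 bases before the start site to 50 bases of the transcript, 5′ to 3′ on the strand of the gene. Nox4 and Fxyd1 are shown as the genes by which this set of regions is marked, and the pair of Hnf4a windows because only the downstream one lay in a kept region. Rbp4 and Cpn1, picked after their values were seen, are shown as kept promoters of plasma protein genes that hold motif letters. Capitals mark matches to AP-1 (TGANTCA) or FOXA (TGTTTAC) on either strand, and windows without capitals held none of the motifs searched.
Nox4, chr7:87246399-87246698, plus strand: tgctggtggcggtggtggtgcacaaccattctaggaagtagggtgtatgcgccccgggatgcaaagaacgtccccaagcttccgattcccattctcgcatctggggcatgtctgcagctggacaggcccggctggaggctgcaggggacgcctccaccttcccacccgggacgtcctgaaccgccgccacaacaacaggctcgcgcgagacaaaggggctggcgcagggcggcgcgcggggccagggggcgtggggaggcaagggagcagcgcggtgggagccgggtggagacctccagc
Fxyd1, chr7:31054804-31055103, minus strand: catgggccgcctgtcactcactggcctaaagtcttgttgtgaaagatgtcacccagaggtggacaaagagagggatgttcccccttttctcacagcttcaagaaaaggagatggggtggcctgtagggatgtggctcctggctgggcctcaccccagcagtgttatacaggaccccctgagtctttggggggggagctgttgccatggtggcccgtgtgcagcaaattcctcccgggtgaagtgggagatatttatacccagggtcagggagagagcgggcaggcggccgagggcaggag
Hnf4a downstream start, chr2:163546905-163547204, plus strand: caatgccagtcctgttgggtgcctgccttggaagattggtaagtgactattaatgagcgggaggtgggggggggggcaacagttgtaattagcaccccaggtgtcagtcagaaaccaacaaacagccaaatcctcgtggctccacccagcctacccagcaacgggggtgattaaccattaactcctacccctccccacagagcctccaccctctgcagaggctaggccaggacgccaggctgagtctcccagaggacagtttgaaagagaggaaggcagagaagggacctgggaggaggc
Hnf4a upstream start, chr2:163506607-163506906, plus strand, in no kept region: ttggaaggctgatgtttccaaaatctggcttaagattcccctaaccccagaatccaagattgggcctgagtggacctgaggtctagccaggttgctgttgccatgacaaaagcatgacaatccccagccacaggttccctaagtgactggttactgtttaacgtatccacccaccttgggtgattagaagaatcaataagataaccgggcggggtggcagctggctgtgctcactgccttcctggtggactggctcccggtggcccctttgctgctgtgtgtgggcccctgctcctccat
Rbp4, chr19:38124762-38125061, minus strand, AP-1 letters from 142 bases upstream of the start: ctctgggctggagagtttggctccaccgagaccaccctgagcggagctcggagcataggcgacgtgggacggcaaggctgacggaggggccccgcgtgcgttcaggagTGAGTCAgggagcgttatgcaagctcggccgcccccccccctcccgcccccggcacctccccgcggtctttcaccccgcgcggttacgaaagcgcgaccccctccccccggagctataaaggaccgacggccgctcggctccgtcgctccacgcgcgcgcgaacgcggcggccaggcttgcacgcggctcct
Rbp4, chr19:38125272-38125571, minus strand, FOXA letters from 241 bases upstream of that start: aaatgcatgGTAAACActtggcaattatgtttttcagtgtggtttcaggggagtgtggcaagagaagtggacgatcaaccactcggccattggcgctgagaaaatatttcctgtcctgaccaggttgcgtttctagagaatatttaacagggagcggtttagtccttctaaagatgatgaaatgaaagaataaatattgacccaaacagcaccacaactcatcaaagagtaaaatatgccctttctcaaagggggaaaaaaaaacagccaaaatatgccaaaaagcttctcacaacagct
Cpn1, chr19:43986471-43986770, minus strand, FOXA letters from 65 bases upstream of the start: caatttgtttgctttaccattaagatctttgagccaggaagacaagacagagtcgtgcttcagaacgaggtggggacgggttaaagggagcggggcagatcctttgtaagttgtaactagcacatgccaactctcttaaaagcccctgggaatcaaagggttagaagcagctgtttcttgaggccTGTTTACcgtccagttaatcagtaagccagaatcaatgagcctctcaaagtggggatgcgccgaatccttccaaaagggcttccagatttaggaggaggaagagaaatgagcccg

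The kept regions together took 0.828%, 0.788% and 0.969% of nuclear reads in the 3 reprogrammed libraries, against 1.06%, 1.03% and 1.06% in DDC hepatocytes and 0.328%, 0.352% and 0.324% in DDC biliary cells. Reprogrammed libraries lay between the hepatocyte and the biliary libraries with no overlap, and the one nearest to hepatocytes was library 3. The rule read these same libraries and held the DDC biliary mean under the reprogrammed mean, which favours their separation. In the untreated libraries, which the rule did not read, the share was 1.0%, 0.993% and 0.952% in hepatocytes and 0.493%, 0.365% and 0.348% in biliary cells. Every untreated hepatocyte library lay above every untreated biliary library, and untreated biliary library 1 stood highest of its group. Fewer cells of a type and less open chromatin per cell cannot be told apart in such bulk samples. For scale, 11095 regions with the same hepatocyte floor, at most 0.5 times the hepatocyte level in DDC biliary cells, and a reprogrammed mean under 0.5 times that of hepatocytes are called closed here. Those closed regions took 5.05%, 3.93% and 7.03% of reads in reprogrammed libraries and 18.6%, 21.1% and 19.9% in DDC hepatocytes. Of all 13574 regions in which DDC biliary cells were at or under 0.5 times DDC hepatocytes, 567 (4.18%) were kept regions.

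**Figure D1:**
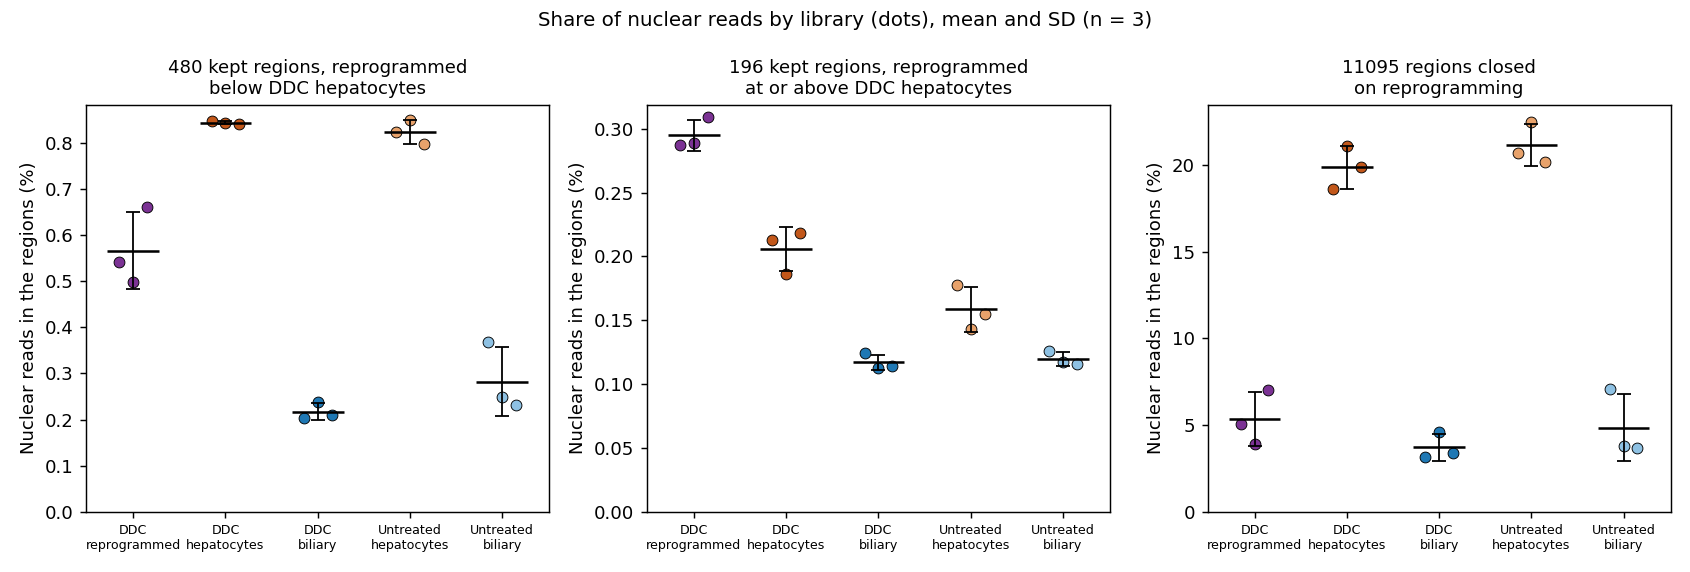
Share of nuclear reads (%, linear axes from 0) in each library, for the 480 kept regions below the DDC hepatocyte mean, the 196 at or above it, and the 11095 closed regions. Dots are libraries, bars the mean and SD of 3. In the left panel reprogrammed libraries lie between hepatocytes and biliary cells, in the middle panel they lie above every other group, and in the right panel they lie near biliary cells. The regions of each panel were chosen on the DDC libraries, which favours this order of the DDC groups.

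The median level over single kept regions was 9.21 nuclear RPM in reprogrammed cells, 11.3 in DDC hepatocytes, 3.59 in DDC biliary cells, 9.45 in untreated hepatocytes and 3.81 in untreated biliary cells. The reprogrammed mean ran from 5.01 to 96.7, with the middle of the regions between 6.7 and 14.6. The median ratio of reprogrammed cells to DDC hepatocytes was 0.787, and that of DDC biliary to reprogrammed cells 0.401. In 599 of the 676 regions all 3 reprogrammed libraries lay above all 3 DDC biliary libraries. The rule held the biliary mean at or under 0.5 times the reprogrammed mean in these same libraries, which favours such separation. The count was not made over all regions. Reprogrammed library 3, the one with most hepatocyte marker signal, was the highest of its group in 402 regions, and library 2 the lowest in 349.

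Many regions lay close to the limits of the rule. Between 0.45 and 0.5 in the ratio of biliary to reprogrammed cells there were 216 kept regions, and 279 otherwise qualifying regions lay between 0.5 and 0.55. The limit against hepatocytes was less crowded, with 91 kept regions between 0.5 and 0.55 and 99 regions just under it. At that limit a region at Zcchc24 with 5.15 nuclear RPM in reprogrammed cells and 10.3 in DDC hepatocytes was kept, and one at Tafa3 with 8.07 and 16.2 was not. At the biliary limit the nearest region outside lay at Pcgf5, with 7.3 in reprogrammed cells and 3.65 in DDC biliary cells, a ratio of 0.5003.

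Membership depended on which reprogrammed library was read. Without reprogrammed library 1 the same rule gave 826 regions, 594 of them among the 676. Without library 2 it gave 1127, with 619 shared, and without library 3, the library with most hepatocyte marker signal, 530, with 422 shared. Leaving out any of the other DDC libraries gave 652 to 832 regions. A stricter reading chose regions on libraries of 2 numbers and read the ratios in the libraries of the third. Of 844 regions chosen without the libraries numbered 1, 42.4% met both ratios there, against 3.9% of all regions past the floor. Without number 2, 19.9% of 1389 did, against 3.09%, and without number 3, 54.9% of 508, against 6.52%. Reprogrammed cells stayed above DDC biliary cells in 95.9%, 70.2% and 95.7% of the chosen regions, against 63.0%, 55.3% and 57.7% of the regions past the floor. Both shares were lowest in the libraries numbered 2.

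**Figure D2:**
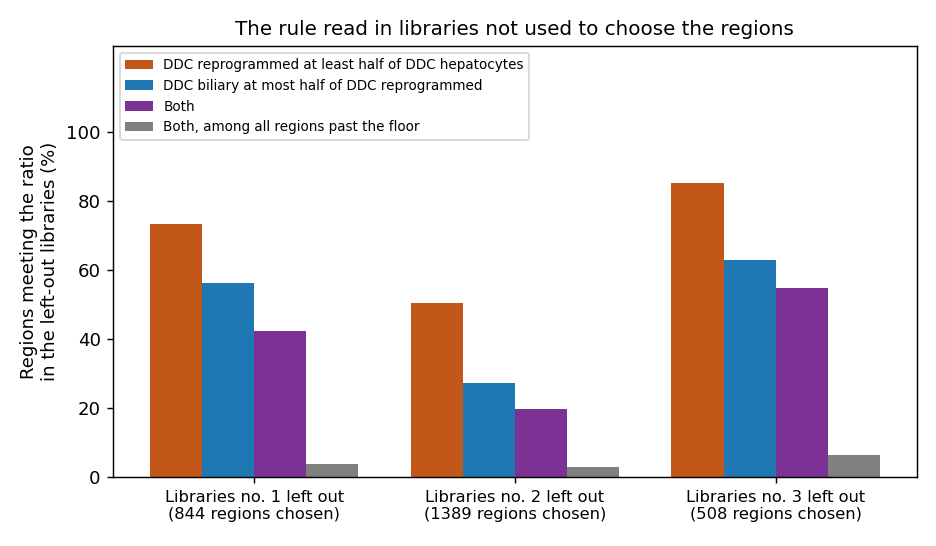
Percent of regions chosen on libraries of 2 numbers that met each ratio of the rule in the libraries left out, with all regions past the floor in grey (linear axis, no error bars since 1 library per group was read). The share meeting both ratios was 42.4%, 19.9% and 54.9%, against 3.9%, 3.09% and 6.52% of all regions past the floor.

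Untreated hepatocytes and untreated biliary cells show whether the kept regions belong to hepatocytes outside the injury. By limma-trend on log2(nuclear RPM + 1), fitted to 79075 regions with a mean of 1 or more, 190 kept regions (28.1%) were higher in untreated hepatocytes at a Benjamini-Hochberg adjusted p under 0.05, as were 10.9% of all regions tested. A further 46 (6.8%) were lower, as were 22.1% of all regions, and 440 were not called. All 676 entered the test, as the floor of the rule ensures. The fit took all 15 libraries. Its SE and p-values thus also rest on the spread of the DDC libraries, which were deeper than those of untreated hepatocytes. With only the 6 untreated libraries in the fit, 89 were higher and 28 lower, where 5.5% and 13.9% of all regions were. The median log2 difference, hepatocytes minus biliary cells, was 0.57 over kept regions and −0.39 over all regions. The kept regions stood nearer to hepatocytes than the regions past the floor, of which 14.1% were higher and 24.0% lower, and farther from them than the closed regions, of which 45.4% were higher and 1.1% lower with a median of 1.46. Most kept regions lay farther than 1 kb from the ends of protein-coding genes. Of the regions past the floor at such positions 19.3% were higher and 20.6% lower. Counted by library instead, all 3 hepatocyte libraries lay above all 3 biliary libraries in 196 kept regions (29.0%, against 11.5% of all regions) and below them in 51 (7.5%, against 24.3%). By edgeR on the recovered reads, 126 were higher, where 7.63% of all regions were, and 30 lower, where 20.9% were. DESeq2 called 218 higher, where 14.7% of all regions were, and 13 lower, where 16.1% were. Without untreated biliary library 1 limma called 185 higher (10.2% of all regions) and 31 lower (17.5%). Under the scaling as deposited, which counts mitochondrial reads in the total, 32 were higher (2.82% of all regions) and 176 lower (55.3%). The median of all regions was −1.19 as deposited and −0.39 with nuclear reads, and the kept regions lay 0.96 above it with nuclear reads and 0.70 above it as deposited.

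The kept regions are also described by their side of the DDC hepatocyte mean. In 480 regions reprogrammed cells were below DDC hepatocytes. Of these 171 (35.6%) were higher and 17 (3.5%) lower in untreated hepatocytes, with a median log2 difference of 0.83. In the other 196 regions reprogrammed cells were at or above DDC hepatocytes. Of those 19 (9.7%) were higher and 29 (14.8%) lower, with a median of −0.29, and the background was 10.9% and 22.1%. The 480 took 0.541%, 0.498% and 0.66% of reads in reprogrammed libraries, 0.218 ± 0.0193% in DDC biliary cells, 0.823 ± 0.0267% in untreated hepatocytes and 0.282 ± 0.0744% in untreated biliary cells (SD, n = 3 each). The 196 took 0.287%, 0.289% and 0.309% in reprogrammed libraries, above all other libraries, and 0.206 ± 0.0169% in DDC hepatocytes, 0.117 ± 0.00638% in DDC biliary cells, 0.159 ± 0.018% in untreated hepatocytes and 0.12 ± 0.0052% in untreated biliary cells. In the untreated libraries, then, calls toward hepatocytes were more frequent among the 480 than over all regions, and among the 196 they did not exceed the share over all regions, so the name hepatocyte regions is not borne out there. The difference between the 480 and the 196 was not tested, since the split uses values that chose the regions. In 109 kept regions DDC biliary cells were above 0.5 times DDC hepatocytes. Of these 10 (9.2%) were higher and 20 (18.3%) lower in untreated hepatocytes, with a median of −0.38, so calls toward hepatocytes did not exceed the background there either. Of the other 567, 180 (31.7%) were higher and 26 (4.6%) lower.

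**Figure D3:**
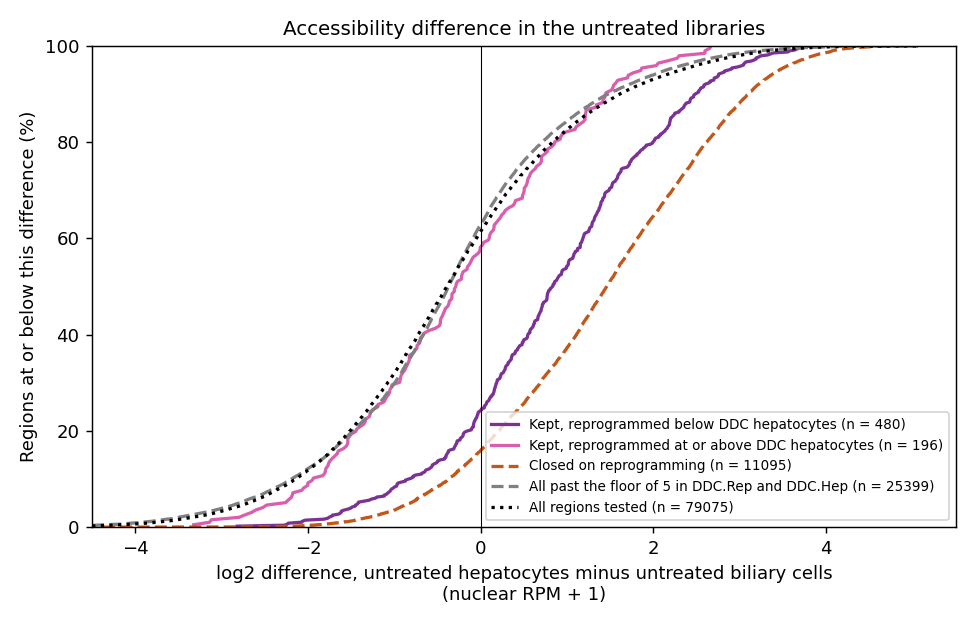
Cumulative share of regions (%) by their log2 difference in the untreated libraries, hepatocytes minus biliary cells (nuclear RPM + 1). The curve of the 480 kept regions below DDC hepatocytes, median 0.83, lies between the closed regions, median 1.46, and all regions, median −0.39. The curve of the 196 at or above DDC hepatocytes, median −0.29, lies near that of all regions.

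Depth sets a limit on the lower calls. In 51 kept regions no untreated hepatocyte library had a read. The 3 reads that a count of 0 still allows over the group equal 2.88 nuclear RPM, which covers counting error only, so a biliary level under 2.88 gives no fold there. Such regions made up 14.3% of the 196, 4.8% of the 480 and 18% of all regions tested. With them set at that limit, the median of the 196 was 0.0 and that of the 480 was 0.83.

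Nox4, which encodes an NADPH oxidase that makes hydrogen peroxide, had 1 kept region at its start site (chr7:87246234-87248580). Its level was 14.9, 15.6 and 16.8 nuclear RPM in reprogrammed libraries, 14.5, 18.7 and 42.8 in DDC hepatocytes and 1.15, 2.72 and 3.32 in DDC biliary cells. Reprogrammed libraries overlapped with hepatocytes and lay well above biliary cells. Untreated hepatocytes had 79.3, 52.9 and 51.1, on 60 reads, and untreated biliary cells 4.91, 3.69 and 3.19, on 36 reads. The untreated groups were far apart, with a log2 difference of 3.64 ± 0.43 (SE from the fit of all 15 libraries, n = 3 each; limma adjusted p = 3.51e-05, edgeR adjusted p = 1.69e-07). Its call remained in every alternative run, thinning to equal depth included. Of the 2 other regions tied to Nox4, one upstream of the gene averaged 2.02 in reprogrammed cells, 3.93 in DDC hepatocytes and 0.324 in DDC biliary cells, and one inside it averaged 1.02, 0.604 and 0.161, so neither reached the floor. In untreated cells the upstream one was not called by limma (adjusted p = 0.342) and was higher in hepatocytes by edgeR (adjusted p = 0.0131).

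Fxyd1, which encodes phospholemman, a small regulator of the sodium pump, had a single region, and it was kept (chr7:31053361-31059632). It held 71.4, 64.9 and 71.7 nuclear RPM in reprogrammed libraries, 90.9, 100 and 78.1 in DDC hepatocytes and 10.1, 20.2 and 16.0 in DDC biliary cells. The 3 groups did not overlap. Untreated hepatocytes had 59.5, 97.5 and 93.7 and untreated biliary cells 58.6, 35.7 and 35.5. The lowest hepatocyte library and biliary library 1 nearly met, and the difference of 0.94 ± 0.28 passed with limma (adjusted p = 0.0155) but not with edgeR (adjusted p = 0.474). It was −0.90 as deposited, and without untreated biliary library 2 or 3 the call ended at 0.82. In untreated biliary cells Fxyd1 stood at 43.3 ± 13.3 (SD, n = 3), above the 15.4 ± 5.07 of DDC biliary cells.

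Among hepatocyte transcription factors, 7 of the 276 regions tied to 23 genes were kept (2.54%, against 0.725% of all nuclear regions), at Hnf4a, Nr5a2, Ppara and Prox1, while 60 were closed. Of the 7 kept regions 4 were higher in untreated hepatocytes and none was lower by limma. Over the 236 tested regions of the list 20.3% were higher and 9.7% lower.

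Hnf4a encodes the nuclear receptor that sustains the hepatocyte program, and it has a downstream promoter used in adult liver and an upstream one known from other gut organs. The kept region at the downstream start (chr2:163546546-163551955) held 28.8, 23.8 and 28.8 nuclear RPM in reprogrammed libraries, 62.7, 55.5 and 43.6 in DDC hepatocytes and 6.64, 11.3 and 7.43 in DDC biliary cells. Reprogrammed cells thus stood near 0.5 times hepatocytes, and above biliary cells in every library. Untreated hepatocytes had 39.7, 67.7 and 85.2 and untreated biliary cells 23.8, 8.2 and 5.01, without overlap and with the highest biliary value in library 1. The log2 difference was 2.49 ± 0.44 (limma adjusted p = 0.000579, edgeR adjusted p = 0.000271), and 0.64 without a call as deposited. The region at the upstream start was open in every group. It averaged 24.0 ± 1.4 in reprogrammed cells, 20.7 ± 2.64 in DDC hepatocytes, 25.5 ± 3.06 in DDC biliary cells, 18.8 ± 10.6 in untreated hepatocytes and 19.8 ± 2.51 in untreated biliary cells (SD, n = 3 each). Its untreated difference of −0.22 ± 0.37 did not pass (limma adjusted p = 0.684).

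Hnf4a had 20 regions, of which 3 were kept and 8 closed, so the locus was not kept as a block. The neighbour just before the downstream start region (chr2:163537897-163542273) fell among the closed ones, with 25.7 in reprogrammed cells, 97.1 in DDC hepatocytes and 10.3 in DDC biliary cells. A kept region 7279 bases from the start (chr2:163554434-163557153) averaged 22.6 ± 3.17 in reprogrammed cells, 27.8 ± 7.9 in DDC hepatocytes and 6.27 ± 0.801 in DDC biliary cells. In untreated cells it overlapped, with 9.92, 31.4 and 34.1 in hepatocytes and 14.7, 5.74 and 5.47 in biliary cells. Its call (1.39 ± 0.47, limma adjusted p = 0.0316) was not made by edgeR (adjusted p = 0.116), was −0.28 as deposited, and ended without untreated hepatocyte library 2 (1.15) or 3 (1.09) or untreated biliary library 2 (1.20) or 3 (1.17). The third kept region (chr2:163568000-163569659) had 9.32, 11.7 and 10.3 in reprogrammed libraries, 8.96, 10.5 and 3.36 in DDC hepatocytes and 1.73, 1.94 and 0.977 in DDC biliary cells. It held few reads in untreated cells, 2 in hepatocytes and 14 in biliary cells, a ratio of 1.3 (95% exact interval 0.143 to 5.66), and was not called (limma adjusted p = 0.852). Summed over all 20 regions, Hnf4a had 167, 142 and 178 in reprogrammed libraries, 406, 394 and 310 in DDC hepatocytes and 66.5, 95.7 and 76.1 in DDC biliary cells.

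Prox1, a homeobox regulator of hepatocyte and lymphatic fate, had a kept region 10567 bases outside the gene (chr1:190106020-190107468). Reprogrammed libraries had 28.6, 33.2 and 35.5 nuclear RPM, DDC hepatocytes 92.6, 62.7 and 34.4, and DDC biliary cells 15.4, 20 and 10.2. Untreated hepatocytes had 74.4, 49.6 and 59.6 and untreated biliary cells 23.4, 15.6 and 20 nuclear RPM. DDC hepatocytes were spread widely and met the reprogrammed level in library 3, while the untreated groups did not overlap (1.59 ± 0.35, limma adjusted p = 0.00244; edgeR adjusted p = 0.0732; −0.25 as deposited). Ppara, the nuclear receptor of fatty acid oxidation, had 2 kept regions. The stronger averaged 20.3 in reprogrammed cells, 21.3 in DDC hepatocytes and 9.44 in DDC biliary cells and was higher in untreated hepatocytes (1.81 ± 0.46, limma adjusted p = 0.00628, edgeR adjusted p = 0.0452). The weaker was not called by limma. Nr5a2, a receptor that drives bile acid genes, averaged 22.5, 31.9 and 9.51 in those groups, and its untreated difference of 1.41 ± 0.53 missed the limit with limma (adjusted p = 0.051) and passed with edgeR (adjusted p = 0.0258).

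**Figure D4:**
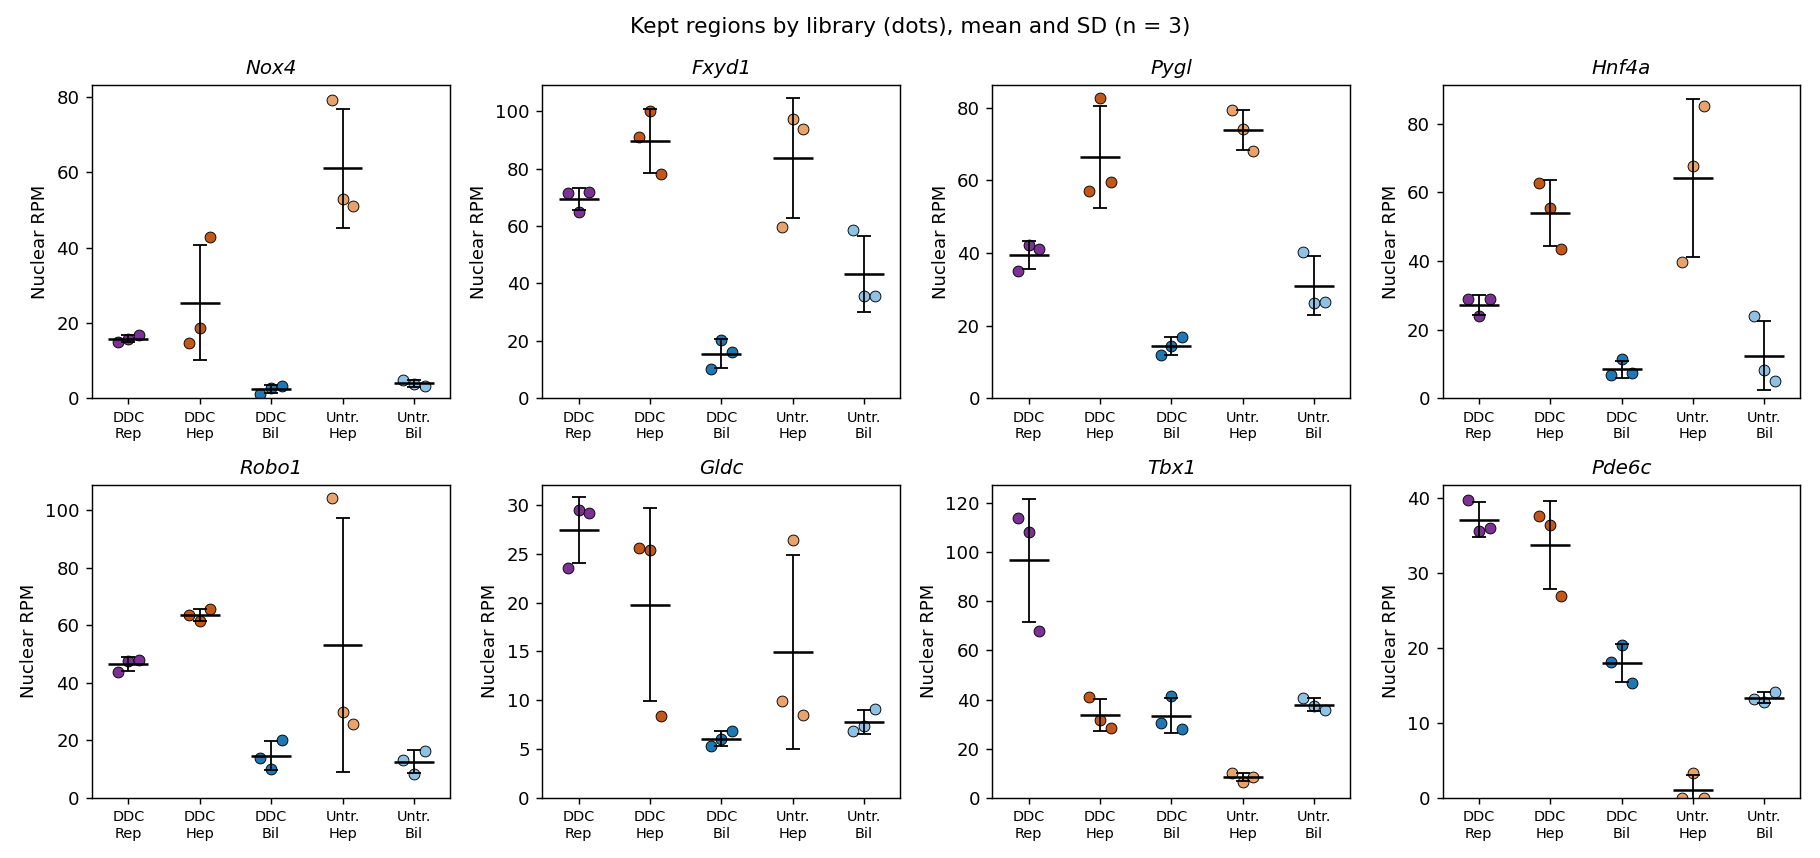
Nuclear RPM of 8 kept regions in each library (dots) with mean and SD of 3 (linear axes from 0). Hnf4a is the downstream start region, Robo1 the region chr16:72662843-72664584, and Gldc chr19:30173762-30175758. Nox4, Fxyd1, Pygl, Hnf4a and Robo1 were higher in untreated hepatocytes than in untreated biliary cells, Tbx1 and Pde6c were lower, and Gldc was not called.

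Of 214 regions tied to hepatocyte function genes, most of them plasma proteins, 6 were kept (2.8%, against 0.725% of all nuclear regions), at Ahsg, C9, F2, Fgg, Fxyd1 and Nox4, against 113 that closed. Of these 6 limma called 4 higher in untreated hepatocytes, where 50.8% of the list's tested regions were. The list holds Nox4 and Fxyd1, the genes by which this set of regions is marked, and both are among the 4. Its share of kept regions is thus in part set by the choice of genes. C9, the pore-forming component of complement, had a kept region at its start (chr15:6444434-6449943) with 25, 19.5 and 27.7 nuclear RPM in reprogrammed libraries, 33.3, 39.7 and 33.6 in DDC hepatocytes and 8.75, 8.15 and 7.62 in DDC biliary cells. The 3 groups did not overlap. Untreated hepatocytes had 29.7, 52.9 and 59.6 and untreated biliary cells 19.6, 16.8 and 16.9, again without overlap (1.31 ± 0.31, limma adjusted p = 0.00379; edgeR adjusted p = 0.125; −0.49 as deposited). Fgg, a chain of fibrinogen, averaged 20.2 in reprogrammed cells, 33.0 in DDC hepatocytes and 8.9 in DDC biliary cells and was higher in untreated hepatocytes by limma (1.35 ± 0.47, adjusted p = 0.038; edgeR adjusted p = 0.228). Ahsg, which encodes fetuin-A, and F2, which encodes prothrombin, averaged 6.64 and 5.15 in reprogrammed cells and were not called.

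The kept promoter regions of Rbp4, the plasma retinol carrier, and Cpn1, a subunit of carboxypeptidase N, are those whose windows are printed above. Rbp4 averaged 33.8 nuclear RPM in reprogrammed cells, 48.1 in DDC hepatocytes and 12.2 in DDC biliary cells, and Cpn1 23.5, 31.0 and 8.31. In untreated cells neither difference was detectable at this depth, with Rbp4 at 31.3 in hepatocytes and 26.8 in biliary cells (−0.05 ± 0.47, limma adjusted p = 0.951) and Cpn1 at 22.8 and 15.5 (0.43 ± 0.43, limma adjusted p = 0.48). At both, the DDC biliary mean was under that of every other group.

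Metabolic genes had kept regions at about the overall share of 0.725% or none. No region of 128 tied to cytochrome P450 genes, the main enzymes of drug and steroid oxidation, was kept, while 47 closed. Only 25 of the 128 passed the floor in reprogrammed cells and DDC hepatocytes. The list is thus too short for that absence to be read against the overall share. Of 376 regions of lipid and glucose genes 3 were kept (0.8%), at Pygl, Gys2 and Ghr, and 137 closed. Pygl, the liver glycogen phosphorylase, had 35.1, 42.1 and 41.2 nuclear RPM in reprogrammed libraries at its kept region (chr12:70223494-70228543), 57.2, 82.8 and 59.6 in DDC hepatocytes and 11.9, 14.4 and 16.8 in DDC biliary cells. Untreated hepatocytes had 79.3, 74.3 and 68.1 and untreated biliary cells 40.4, 26.2 and 26.4. The 3 DDC groups did not overlap, nor did the untreated groups, while the highest untreated biliary library lay within the reprogrammed range (untreated difference 1.25 ± 0.25, limma adjusted p = 0.00126; edgeR adjusted p = 0.198; −0.59 as deposited). Gys2, the liver glycogen synthase, averaged 17.0 ± 1.2, 33.7 ± 10.7 and 4.97 ± 1.51 in reprogrammed cells, DDC hepatocytes and DDC biliary cells, and Ghr, the growth hormone receptor, 5.41, 5.06 and 1.65. Neither was called in untreated cells, although Gys2 was higher in hepatocytes without untreated hepatocyte library 1 (1.4).

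Of 153 regions of bile acid genes 3 were kept (1.96%, against 0.725% of all nuclear regions), each at a canalicular exporter, and 46 closed. The kept region at Abcb4, which moves phosphatidylcholine into bile, averaged 29.7 ± 6.61 nuclear RPM in reprogrammed cells, 46.9 ± 9.73 in DDC hepatocytes and 12.2 ± 3.42 in DDC biliary cells. In untreated cells it was 37.1 ± 17.5 in hepatocytes and 32.1 ± 3.23 in biliary cells (SD, n = 3 each), with no call (0.07 ± 0.37, limma adjusted p = 0.904). Abcb11, the bile salt export pump, averaged 10.2, 6.23 and 3.75 in the 3 DDC groups, and Abcc2, which exports conjugated bilirubin, 9.82, 17.8 and 2.4. Neither was called, although Abcb11 was higher in hepatocytes without untreated hepatocyte library 1 (2.13).

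Of the 10 kept regions with the highest reprogrammed level, 9 lay within 1 kb of an end of a gene. The highest and widest, 12018 bases at Tbx1 (chr16:18580233-18592250), a transcription factor of pharyngeal development, had 114, 108 and 67.9 nuclear RPM in reprogrammed libraries, 41, 31.6 and 28.5 in DDC hepatocytes and 30.3, 41.5 and 28.2 in DDC biliary cells. Reprogrammed libraries stood above both other groups, which overlapped. Untreated hepatocytes had 9.92, 6.61 and 8.52 and untreated biliary cells 40.8, 37.3 and 35.8, so it was lower in untreated hepatocytes (−2.07 ± 0.28, limma adjusted p = 8.73e-05, edgeR adjusted p = 9.8e-07). At Tbx1, then, untreated hepatocytes had the lowest level of all groups.

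At 4 others of the 10 highest, reprogrammed cells were near or under DDC hepatocytes and the DDC biliary mean was the lowest of all groups. Gas1, a membrane co-receptor of hedgehog, averaged 64.3 nuclear RPM in reprogrammed cells, 58.7 in DDC hepatocytes, 31.3 in DDC biliary cells, 95 in untreated hepatocytes and 59.1 in untreated biliary cells. It was not called between the untreated groups (0.57 ± 0.27, limma adjusted p = 0.125), except without untreated hepatocyte library 1 (0.98). A region tied to Gm33153 that covers the start of Vegfc, the growth factor of lymphatic vessels, averaged 54.1, 88.7, 24.9, 115 and 61.7 in the same groups. Its untreated call (0.82 ± 0.29, limma adjusted p = 0.0385) was absent with edgeR (adjusted p = 0.846) and ended without any 1 of untreated hepatocyte library 3 (0.50) or the biliary libraries 1, 2 and 3 (0.74 to 0.87). Vtn, the adhesive plasma protein vitronectin, averaged 50.4, 51.6, 21.4, 49.4 and 34.3 at a region that also covers the start of Sarm1, and Fam126a, part of a lipid kinase complex, 48.6, 43.7, 18.7, 34.0 and 23.8. Neither was called.

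Zeb2, a repressor of E-cadherin, averaged 51.0 ± 3.07 nuclear RPM in reprogrammed cells, 26.4 ± 15.1 in DDC hepatocytes, 22.2 ± 3.72 in DDC biliary cells, 37.2 ± 28.3 in untreated hepatocytes and 23.7 ± 5.55 in untreated biliary cells. Tppp3, a tubulin-binding protein of tendon and other mesenchyme, averaged 49.0 ± 1.66, 28.9 ± 8.93, 20.8 ± 2.95, 16.2 ± 8.24 and 12.3 ± 0.908 (SD, n = 3 each). Col12a1, a collagen of fibrous tissue, had 44.5, 42.7 and 60.5 in reprogrammed libraries at chr9:79717074-79721387, against 20.5, 17.2 and 28.5 in DDC hepatocytes and 21.5, 19.6 and 23.9 in DDC biliary cells. In these 3 regions the reprogrammed mean was above that of every other group. Untreated hepatocytes came next at Col12a1, with 39.6 ± 18.6 against 17.6 ± 0.874 in untreated biliary cells (SD, n = 3 each), and the call there (0.99 ± 0.36, limma adjusted p = 0.0426) was not made by edgeR (adjusted p = 0.725) and ended without any one untreated library but hepatocyte library 2 (0.74 to 1.01). The stellate and fibroblast marker sums given above also lay above those of DDC hepatocytes in reprogrammed libraries (175 to 213 against 68.0 to 108) and overlapped with those of DDC biliary cells (170.0 to 190.0), and their part in these values was not tested.

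The 10 kept regions with the largest untreated difference had a reprogrammed mean under that of untreated hepatocytes. Their choice by high untreated hepatocyte values favours this, and over the 676 kept regions it held in 339. All 10 were higher by both tools, and 8 of the 10 lay in or at the gene named. Tenm2, a teneurin adhesion molecule (chr11:37143656-37144558), had 21.0, 16.5 and 13.5 nuclear RPM in reprogrammed libraries, 14.5, 12 and 42 in DDC hepatocytes and 2.69, 3.69 and 2.35 in DDC biliary cells. Untreated hepatocytes had 39.7, 29.7 and 42.6 and untreated biliary cells 3.4, 0.82 and 1.37. The untreated groups lay far apart (3.83 ± 0.48, limma adjusted p = 5.61e-05, edgeR adjusted p = 1.44e-06). Slc38a1, a glutamine transporter, averaged 10.2 in reprogrammed cells, 16.8 in DDC hepatocytes and 2.39 in DDC biliary cells, against 33.9 in untreated hepatocytes and 2.81 in untreated biliary cells (3.67 ± 0.59, limma adjusted p = 0.000313). Phyh, which starts the breakdown of phytanic acid in peroxisomes, averaged 11.3, 13.6 and 5.17 in the DDC groups, against 63.8 and 5.51 in untreated hepatocytes and biliary cells (3.36 ± 0.46, limma adjusted p = 9.7e-05). At Phyh the reprogrammed level lay near that of DDC hepatocytes, and both lay far under untreated hepatocytes. Atp6ap1l averaged 7.71, 14.1 and 1.26 in the DDC groups, against 49.4 and 3.69 in untreated hepatocytes and biliary cells (3.56 ± 0.51, limma adjusted p = 0.000129). The remaining ones were Nox4, a second Col12a1 region, Ablim3, Dlgap1, Metap1d and 1700113H08Rik, with differences of 3.32 to 3.73.

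Several genes held more than 1 kept region. The 590 regions with a gene within 50 kb fell on 521 genes, of which 464 had 1, 47 had 2 and 10 had 3 or more. Cped1 and Gldc had 4 each. At Gldc, the glycine-cleaving enzyme of mitochondria, the promoter region had 23.5, 29.5 and 29.2 nuclear RPM in reprogrammed libraries, 25.6, 25.4 and 8.39 in DDC hepatocytes and 5.29, 6.02 and 6.84 in DDC biliary cells. Reprogrammed cells overlapped with hepatocytes and not with biliary cells, and untreated hepatocytes (9.92, 26.4 and 8.52) overlapped with untreated biliary cells (6.8, 7.38 and 9.11), with no call (0.70 ± 0.47, limma adjusted p = 0.272). None of the 4 Gldc and none of the 4 Cped1 regions was called by limma or by edgeR with TMM scaling, and 6 of the 15 Gldc regions were closed. Without untreated hepatocyte library 3, however, 1 Gldc region (2.51) and 3 Cped1 regions (0.98, 1.48 and 1.74) were higher in untreated hepatocytes. Robo1, a receptor of Slit guidance cues, had 3 kept regions of 23. The strongest held 43.7, 47.7 and 47.9 in reprogrammed libraries, 63.6, 61.3 and 65.5 in DDC hepatocytes and 13.9, 9.9 and 20 in DDC biliary cells, and was higher in untreated hepatocytes (104, 29.7 and 25.5) than in biliary cells (13.2, 8.2 and 16.2) at 1.75 ± 0.43 (limma adjusted p = 0.00524, edgeR adjusted p = 0.0256; −0.05 as deposited). Ntrk2, the receptor of brain-derived neurotrophic factor, had 3 kept regions that went different ways. Its promoter region was lower in untreated hepatocytes (0.0, 9.91 and 8.52) than in biliary cells (17.4, 22.5 and 25.3), at −2.26 ± 0.66 (limma adjusted p = 0.015, edgeR adjusted p = 0.00177), a call that ended without untreated biliary library 3 (−2.15). A second, with no read in untreated hepatocytes and 2.22 in biliary cells, lies under the limit at which a fold can be given. The region chr13:58999167-58999941 was higher (1.91 ± 0.44, limma adjusted p = 0.00356), but not by edgeR (adjusted p = 0.0854).

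The regions lower in untreated hepatocytes were sparse in reads there. Ikzf2, which encodes the lymphocyte regulator Helios, had a kept region (chr1:69610594-69612752) with 13.9, 9.56 and 16.8 nuclear RPM in reprogrammed libraries, 2.56, 4.79 and 13.4 in DDC hepatocytes and 8.08, 6.41 and 4.89 in DDC biliary cells. No read fell there in the 3 untreated hepatocyte libraries, against 11.3, 4.92 and 12.8 in untreated biliary cells, so it was at least 3.36-fold lower in untreated hepatocytes at the limit of 3 reads over the group (limma adjusted p = 0.000284, edgeR adjusted p = 0.00062). Pde6c, a phosphodiesterase of cone cells, had 39.7, 35.6 and 35.9 in reprogrammed libraries, 37.6, 36.4 and 26.9 in DDC hepatocytes and 18.1, 20.4 and 15.3 in DDC biliary cells. Untreated hepatocytes had 2 reads there and untreated biliary cells 128, a ratio of rates of 0.142 (95% exact interval 0.017 to 0.524, counting error only; limma adjusted p = 0.000189). DDC hepatocytes were therefore high at Pde6c where untreated ones were nearly empty. Bhlhe22, a transcription factor of neurons, averaged 25, 20.5 and 11.7 in the DDC groups and had 4 reads in untreated hepatocytes against 158 in biliary cells (limma adjusted p = 0.00136). Fhit, a nucleotide hydrolase at a fragile site, averaged 5.47, 8.64 and 2.17, and had 2 reads against 108, a ratio of 0.168 (95% exact interval 0.0201 to 0.623; limma adjusted p = 0.002).

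Lists of other cell types are read against the 0.725% of all nuclear regions that were kept. Of 463 regions of biliary genes 2 were kept (0.43%). One lay near Sox9, the transcription factor of bile ducts (chr11:112810245-112812098), with 25.4, 22.0 and 22.1 nuclear RPM in reprogrammed libraries, 19.6, 4.79 and 1.68 in DDC hepatocytes and 10.6, 6.99 and 8.8 in DDC biliary cells. Its DDC hepatocyte mean rested on library 1, and it was not called in untreated cells (−0.43 ± 0.56, limma adjusted p = 0.592). Reln, a secreted matrix protein of stellate cells, had the single kept region of 120 in that list, at 11.3 in reprogrammed cells, 10.4 in DDC hepatocytes and 5.27 in DDC biliary cells, and it was called (higher in hepatocytes, 2.71) only when untreated hepatocyte library 2 was left out. Stab2, a scavenger receptor of sinusoidal endothelium, had the 2 kept regions of 82 in the endothelial list. That share of 2.44% is near the 2.54% of hepatocyte transcription factors. Of the 2, chr10:87032635-87033218, which lay 24597 bases outside the gene, averaged 11.3, 19.6 and 2.01. It was higher in untreated hepatocytes (12.8 ± 6.17) than in biliary cells (0.882 ± 1.53) at 3.07 ± 0.54 (limma adjusted p = 0.000538, edgeR adjusted p = 0.000581). The other, chr10:86878327-86880849 inside the gene, averaged 16.4, 27.2 and 6.95. Its untreated difference of 1.52 ± 0.58 missed the limit with limma (adjusted p = 0.0536) and passed with edgeR (adjusted p = 0.00607). Summed endothelial markers, in which both Stab2 regions are counted, were 104 to 149 in untreated hepatocytes and 69.3 to 96.7 in untreated biliary cells, and their part was not tested.

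No region of the macrophage list (21) or the lymphocyte list (24) was kept, lists too short to be read against that share. The neuronal list, taken as a control, had 3 kept regions of 102 (2.94%), a share like that of the hepatocyte function list. Grin2b, an NMDA receptor subunit, had 2 of them. By limma 1 of the 3 was higher and 1 lower in untreated hepatocytes. The stronger Grin2b region (chr6:136013361-136014519) had 31.8, 32.6 and 54.4 nuclear RPM in reprogrammed libraries, 41.8, 43.6 and 76.4 in DDC hepatocytes and 10.2, 4.66 and 10.8 in DDC biliary cells. It was the one higher in untreated hepatocytes (2.61 ± 0.56, limma adjusted p = 0.00226, edgeR adjusted p = 8.02e-05), and the weaker one was not called by limma. Rbfox3, a splicing factor of neurons, averaged 7.35, 9.01 and 2.52. Its untreated hepatocytes had 1 read against 34 in biliary cells, a ratio of 0.268 with a 95% exact interval of 0.00658 to 1.59. Its limma call (adjusted p = 0.0305) was not made by edgeR (adjusted p = 0.114) and ended without untreated hepatocyte library 1 or 3 (−1.38 each) or untreated biliary library 1 (−1.05) or 2 (−1.76).

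By position the kept regions were close to all nuclear regions. Of the 676, 95 (14.1%) lay within 1 kb of either end of a protein-coding gene, 336 (49.7%) elsewhere in a gene, 159 (23.5%) between genes up to 50 kb away and 86 (12.7%) farther out, against 17.1%, 45%, 24.1% and 13.7% of all nuclear regions. At gene ends lay 8.5% of closed regions and 43.7% of the regions past the floor, and 24.8% of the kept regions when the floor was raised to 10. Their median width was 1122 bases, against 788 for closed regions, 1735 for regions past the floor and 706 for all regions. The share called higher in untreated hepatocytes was 36.8% of the 95 and 26.7% of the other 581 by limma, where 10.9% of all regions were, and 18.9% and 18.6% by edgeR, where 7.63% were. Regions past the floor and farther from gene ends are a closer background for the 581. Of these 19.3% were higher by limma and 11.4% by edgeR. Chromosome 17 held 18 kept regions (2.66%, against 4.11% of all regions), and the X chromosome 6.

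**Figure D5:**
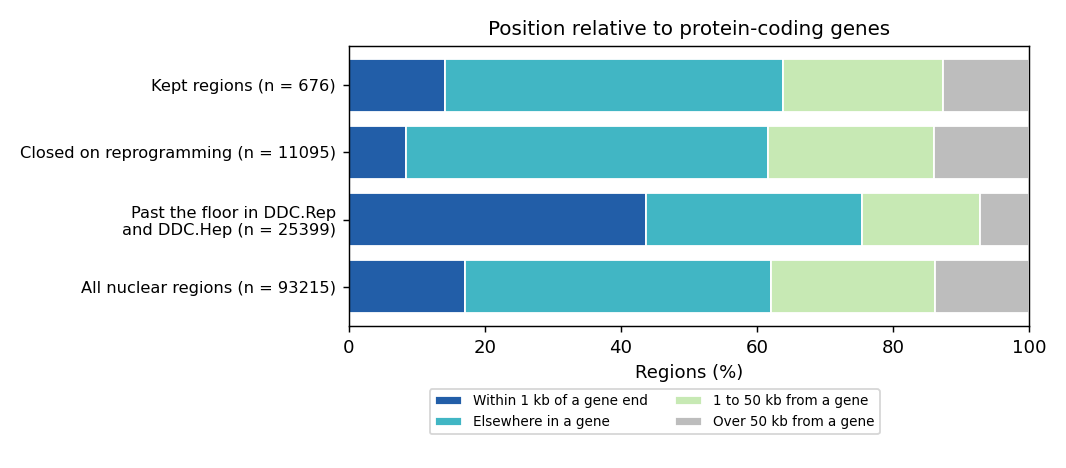
Percent of regions by position relative to protein-coding genes (linear axis). Kept regions had 14.1% within 1 kb of a gene end, against 8.5% of closed regions, 43.7% of regions past the floor in reprogrammed cells and DDC hepatocytes, and 17.1% of all nuclear regions.

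The promoter windows that kept regions covered were somewhat richer in CG than promoters at large. Kept regions overlapped 112 RefSeq windows of 93 genes, through 80 of the regions. The median GC content was 57.5% there and 52.7% over all 32851 windows, with 12 and 7 CG pairs. Letters of the AP-1 motif (TGANTCA) were in 15 of the 112 (13.4%), against 7.81% of all windows, and of the FOXA motif (TGTTTAC) in 8 (7.14%, against 3.65%). The AP-1 windows included those of Igfbp2, F2r, Glyat, Zeb2 and Rbp4. TEAD letters (GGAATG) were in 11 (9.82%, against 14.7%), those of C9, Gldc, Vtn and Zeb2 among them. HNF4 letters (CAAAGTCCA) were in 1 (0.893%, against 0.475%), and C/EBP letters (TTGCGCAA or TTGCACAA) in 1 (0.893%, against 1.19%). HNF1, GRHL (AACCGGTT) and NFI letters were in none, and in at most 0.146% of all windows. Both strands were searched, and several windows can belong to 1 gene or region. A match is a string of letters, not a bound site. The inner part of the kept regions, away from start sites, was not searched.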

How the data were processed

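Accessible chromatin was measured by ATAC-seq in 15 libraries. The submitters' processing notes name mm10 and the tools bedtools, MACS2, SAMtools and Bowtie2. The deposited table gives RPM per region, named TPM by the authors: 100.0% of values up to 100 reads were whole multiples of a library's step (tolerance 0.02), although the evidence is weaker for reprogrammed library 1, whose step lies near a power of 10. The design assumed TPM, and its test on the log scale was kept. Values were rescaled to 1000000 without the 2 mitochondrial regions. Regions went to the protein-coding RefSeq gene (GRCm38.p6) they touched, else the nearest within 50 kb.

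The test was limma 3.58.1 (trend) in R 4.3.3 on log2(nuclear RPM + 1), all 15 libraries in 1 fit, regions with mean 1 or more, Benjamini-Hochberg adjusted p under 0.05. In untreated hepatocyte libraries 1 read was 1.652 to 4.958 nuclear RPM. It was 0.228 to 0.41 in untreated biliary libraries, so adding 1 acts unequally on these groups. At few reads a difference can be understated or shifted toward lower in hepatocytes. A Col12a1 region (chr9:79714019-79715277) averaged 23.0 and 9.6 in them, with a log2 difference of 0.01. Thinned to equal depth, the median was 0.99 over kept and 0.0 over all regions, against 0.57 and −0.39. The cause was not tested. Alternatives were other scalings, pseudocounts, filters and left-out libraries, edgeR 4.0.16 and DESeq2 1.42.0 on recovered reads. Scripts were tested on simulated data. The members and gene lists were chosen with earlier results of these data known. Named regions were the 10 highest in reprogrammed cells, the 10 with the largest and 4 with the lowest untreated difference among those called, the 6 genes with most members, all regions of Nox4 and Fxyd1, and 2 members per list; other genes were named after their values were seen, and some regions that the rule names are not reported here. Motifs had been planned for whole regions and were read in promoter windows only. No library differed from a group mate by counting noise alone (chi-square per degree of freedom 2.18 to 7.47).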

Additional observations from a re-analysis of the deposited data

How the results depend on the processing

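Under the scaling as deposited, 32 kept regions were higher and 176 lower in untreated hepatocytes (190 and 46 with nuclear reads), over all regions 1986 and 38992 (8604 and 17498), and 15.4% of the calls at kept regions were higher (80.5% with nuclear reads). These named regions, called in one scaling or both, were positive with nuclear reads and negative as deposited: Vtn −1.39, Pygl −0.59, Gas1 −1.27, C9 −0.49, Robo1 −0.05, Prox1 −0.25, the second Hnf4a region −0.28, Zeb2 −1.36, Fam126a −1.28, Abcb4 −1.67, Cped1 −1.01 and −1.28, Fxyd1 −0.90, Tppp3 −1.34, the Vegfc region −1.04 and Col12a1 −0.80. Others, called in neither, also turned negative: Stab2 −0.05, Gldc −1.01, −0.83 and −0.90, Abcb11 −0.08, Gys2 −0.76, Cped1 −0.86 and −0.66, and Col12a1 −0.96. In that scaling mitochondrial reads, up to 84.18% of a library, are part of the total. A pseudocount of 5 gave 198 higher and 25 lower, and no filter 187 and 46. With only the 6 untreated libraries in the fit 89 were higher and 28 lower, and thinned to 201705 reads each 6 and 0 (117 and 7 at unadjusted p under 0.05). edgeR gave 126 and 30 with TMM and 178 and 14 with DESeq2 size factors, and DESeq2 218 and 13. With DESeq2 size factors edgeR called 10.1% of all regions higher and 12.7% lower. DESeq2 made 94.4% of its kept-region calls higher, against 80.5% in limma, and 47.7% and 33.0% of the calls over all regions. Leaving out 1 untreated library gave 137 to 251 higher and 29 to 89 lower, with the 89 without untreated hepatocyte library 2, and 29 and 31 without untreated biliary libraries 2 and 1.

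The rule itself moved the set. With reprogrammed cells at least at the hepatocyte mean, 196 regions remained, 19 higher and 29 lower. With DDC biliary cells at most 0.25 times reprogrammed cells there were 75, 25 higher and 3 lower, and with a floor of 10 there were 254, 104 higher and 13 lower, of which 24.8% lay at gene ends, against 14.1%. On deposited values the rule gave 756 regions, 313 higher and 29 lower. Leaving out 1 DDC library gave 530 to 1127 regions. In alternatives chosen after seeing the data, the rule without reprogrammed library 1, 2 or 3 gave 248, 351 and 127 higher and 57, 64 and 43 lower. Gene ends within 500 bases held 13.5%, and within 2 kb 18.2%. The causes of these shifts were not tested beyond what each alternative changes.

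Replicate numbers did not pair the untreated samples (correlations of −0.020, −0.025 and 0.023). Between the DDC groups, libraries of the same number correlated at 0.019 to 0.209 and those of different numbers at −0.174 to 0.02. The reading in left-out libraries compared DDC libraries of the same number. What such libraries share is not in the labels and was not tested. With the replicate block 187 were higher and 48 lower, where 10.8% and 21.8% of all regions were, and no named call changed. Depth limits the untreated hepatocytes most, where 16.0% to 37.9% of kept regions had no read in a library.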
